A study of Mus musculus with 10 samples.

Results

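Expression of 10 genes of the interstitial matrix was followed across the series: the small leucine-rich proteoglycans Dcn, Lum, Ogn and Bgn, the large proteoglycan Vcan, the elastic fibre genes Fbn1 and Eln, the adhesive and matricellular genes Fn1 and Postn, and the mineralization inhibitor Mgp. Members were chosen by gene name, with earlier results of these data known, and all 10 were found among the 29868 genes of the deposited table. RNA sequencing had been performed on 10 libraries from wild-type (WT) C57BL/6 male mice that had all undergone ligation of the left anterior descending coronary artery at 8 weeks of age. The MI group (5 libraries) received saline, and the Nav group (5 libraries, MI+Nav 1 to MI+Nav 5) received navarixin, an oral antagonist of the chemokine receptor CXCR2, at 1 mg/kg once daily for 4 weeks in the general protocol of the study. The comparison asks which matrix transcripts differed between treated and untreated mice after infarction. No sham-operated libraries were analysed here. The labels do not tie a library to a mouse or to a day of sampling, so p-values measure the spread between libraries, part of which may be technical. The batch label has the same 2 values as the group, and batch and treatment therefore cannot be told apart.

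The extracellular matrix of soft tissue is a collagen network whose fibril width and spacing are set by small leucine-rich proteoglycans, short core proteins that bind collagen and carry chondroitin, dermatan or keratan sulfate chains. Fibrillin microfibrils and elastin form the elastic fibres that let vessels and tissue recoil, and microfibrils also store latent TGF-β. Fibronectin and periostin link cells to this network through integrins, and in scar tissue after infarction many of these proteins are made by fibroblasts and myofibroblasts.

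All libraries were labelled as heart, but the heart muscle genes were close to 0. The summed level of 14 cardiomyocyte markers was 1.497 to 2.97 FPKM (mapped fragments scaled by transcript length and library size) in the MI libraries and 1.32 to 2.40 FPKM in the Nav libraries, and Tnnc1, a troponin subunit, had the highest mean among them. Myh6, the cardiac myosin heavy chain, did not exceed 0.0486 FPKM. Markers of the kidney proximal tubule summed to 31653 to 58339 FPKM in the MI group and to 34947 to 52361 FPKM under navarixin, most of it Kap, an androgen-regulated protein of that tubule. Levels of the matrix genes are therefore reported for the deposited libraries and not as levels of heart tissue. Estimated depth was between 16740000 and 20510000 fragments per library. It was searched only within a window set in advance, so a depth outside that window could not have shown. The share of FPKM from mitochondrially encoded genes was 24.4 to 40.6% in the MI group and 26.0 to 45.4% in the Nav group.

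Sequences upstream of 3 of the genes are shown because these genes gave the one call past the threshold (Ogn), another large fold change (Bgn) and the member with most treated libraries above every MI library (Postn). They are the 250 bases before the transcription start, written 5′ to 3′, in RefSeq, assembly GRCm38.p6, which carries the same coordinates as mm10. Of the 10 genes, 5 were matched in this promoter table. The TATA box letters TATAAA, the CAAT box letters CCAAT, the GC box letters GGGCGG and the AP-1 letters TGANTCA were searched on both strands, and bases in a match are in capitals.
Ogn, chr13:49607765-49608014, plus strand: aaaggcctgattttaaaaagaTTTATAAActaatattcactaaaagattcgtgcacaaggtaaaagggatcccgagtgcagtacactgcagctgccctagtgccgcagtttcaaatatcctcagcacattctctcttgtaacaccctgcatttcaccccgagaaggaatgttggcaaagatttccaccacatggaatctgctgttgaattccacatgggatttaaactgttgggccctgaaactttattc
Postn, chr3:54360857-54361106, plus strand: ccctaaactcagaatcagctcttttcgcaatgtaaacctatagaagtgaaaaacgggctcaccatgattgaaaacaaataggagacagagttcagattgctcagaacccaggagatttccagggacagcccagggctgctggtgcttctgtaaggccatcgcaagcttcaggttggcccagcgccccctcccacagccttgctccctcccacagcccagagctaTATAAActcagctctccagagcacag
Bgn, chrX:73483351-73483600, plus strand: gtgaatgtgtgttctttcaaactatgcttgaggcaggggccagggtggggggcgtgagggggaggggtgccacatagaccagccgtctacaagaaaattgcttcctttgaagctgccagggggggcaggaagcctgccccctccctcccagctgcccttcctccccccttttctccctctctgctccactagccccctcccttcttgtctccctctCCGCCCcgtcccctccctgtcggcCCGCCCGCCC
Upstream of Ogn, a pair of overlapping TATAAA matches on opposite strands covered positions -229 to -222, counted back from the start. Upstream of Postn, 1 TATAAA lay at -26 to -21 from the start used here, which is the start closest to that of the deposited gene model. Upstream of Bgn there were 3 GGGCGG matches, of which the nearest pair overlap. Of 32851 mouse promoters of this length, 12.4% held the TATA box letters, 33.8% the CAAT box letters, 32.7% the GC box letters and 6.75% the AP-1 letters. The GC content was 42.0% for Ogn, 52.0% for Postn and 64.4% for Bgn, around a median of 52.4% over all promoters. A match describes letters only, and no binding was measured.

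The members spanned more than 2 orders of magnitude in expression, with Mgp at the top and Vcan at the bottom. Mean FPKM over the 10 libraries, a scale per transcript length on which genes can be set side by side, was 23.4 for Mgp, 6.99 for Bgn, 3.41 for Ogn, 3.18 for Dcn, 1.77 for Fn1, 0.567 for Lum, 0.337 for Eln, 0.336 for Fbn1, 0.322 for Postn and 0.0830 for Vcan. The ranges over libraries of neighbours in this order overlapped in every case. Within single libraries Mgp was above Bgn in all 10, at 1.55 to 4.62 times its level, whereas the ratio of Dcn to Ogn ran from 0.379 to 2.53 and gave no fixed order. Mgp alone made up 37.1 to 69.8% of the summed FPKM of the 10 genes. That sum was 19.1 FPKM in MI 4 and 53.9 to 97.0 FPKM in the other MI libraries, against 13.8 to 28.5 FPKM in the Nav libraries.

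**Figure D1:**
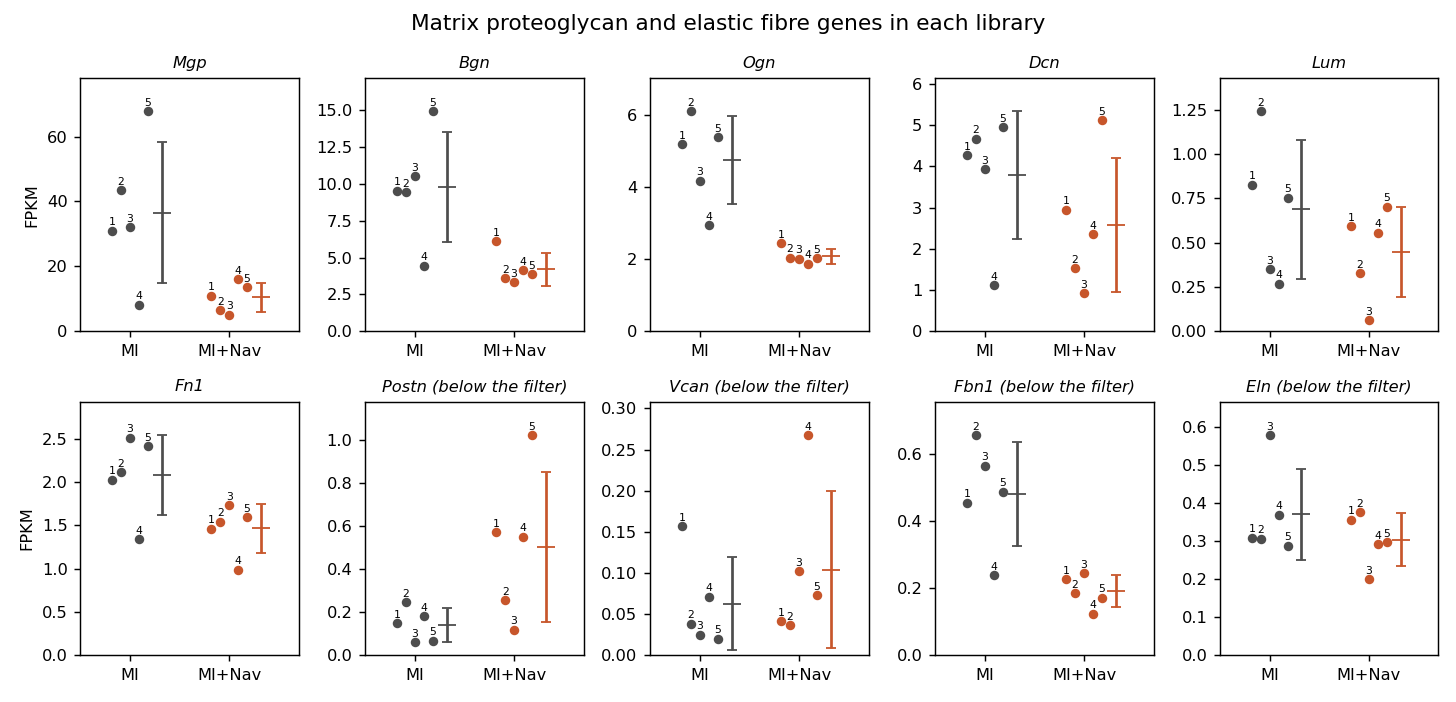
Deposited FPKM (vertical axes, linear, from 0) of the 10 genes in each library, with MI in grey and MI+Nav in orange. Points are libraries with their replicate number, and bars beside them are the group mean with its SD (n = 5). The Ogn panel is the one in which all 5 MI libraries lie above all 5 MI+Nav libraries, and MI 4 is the lowest MI library in 7 of the 10 panels.

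Across the table, 13412 genes reached the filter of at least 0.5 FPKM in at least 5 libraries. Of the members, Fn1, Dcn, Lum, Ogn, Bgn and Mgp passed it, and Vcan, Fbn1, Eln and Postn did not and were not tested. In a limma fit with Benjamini-Hochberg adjustment over all tested genes, 1 of the 6 tested members was lower in the Nav group at an adjusted p under 0.05 (Ogn), where 0.35% of all tested genes were lower. None of the 6 was higher at the adjusted threshold, where 0.0149% of all tested genes were. None was higher at an unadjusted p under 0.05 either, which 1711 of the 13412 tested genes reached, 1544 of them lower. At an unadjusted p under 0.05, 4 of the 6 were lower (Ogn, Bgn, Mgp and Fn1), against 11.5% of all genes. Because the members were chosen with earlier results known, these shares describe the set and do not test it. All 6 had a log2 fold change below 0, as did 71.7% of all genes, and the median log2 fold change was -0.76 for the 6 and -0.12 for all genes. Scaling by median-of-ratios size factors moved the median of all genes to 0.03 and that of the 6 members to -0.60, with all 6 still below 0. It also changed the split of calls over the table from 47 lower and 2 higher to 35 lower and 10 higher. In bulk tissue, fewer cells of a type and less RNA per cell cannot be told apart.

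Of the small leucine-rich proteoglycans Dcn, Lum, Ogn and Bgn, all below 0, only Ogn passed the adjusted threshold. Bgn had a log2 fold change of similar size (-1.07). Ogn encodes osteoglycin (mimecan), which binds collagen fibrils, and lies on mm10 chromosome 13 from 49608046 to 49624501, plus strand. Its level was 5.19, 6.09, 4.17, 2.93 and 5.37 FPKM in MI 1 to MI 5 and 2.44, 2.04, 2.00, 1.87 and 2.02 FPKM in MI+Nav 1 to MI+Nav 5. The groups did not overlap, as was so for 2.57% of all tested genes in this direction, and the treated libraries lay in a narrow band below the lowest MI library. The means were 4.75 ± 1.23 (SD, n = 5) and 2.08 ± 0.214 FPKM (SD, n = 5), resting on an estimated 85 to 293 fragments per library. The log2 fold change was -0.995 on the log2(FPKM + 0.5) scale (SE 0.17, 95% interval -1.37 to -0.62), with an adjusted p of 0.0339. Scaled by median-of-ratios it was -0.83 (adjusted p 0.0475). The call was lost when any single library other than MI 4 was left out, with adjusted p from 0.0539 to 0.113, while leaving out MI 4 gave 0.00319. It was also lost with no filter (log2 fold change -0.995, adjusted p 0.130), with quantile normalization (-0.82, 0.0816) and without the 3 libraries of highest urothelial markers (-1.02, 0.0501). Those 3 were all treated, so that this last fit had only MI+Nav 2 and MI+Nav 3 in the treated group. Ogn lies within the span of Cenpp, a centromere protein gene on the opposite strand, which averaged 0.226 FPKM. The library kit marked strand, and whether the counting used it was not stated.

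Bgn encodes biglycan, a chondroitin and dermatan sulfate proteoglycan that binds collagen and, once released, Toll-like receptors (chromosome X, 73483602 to 73495933, plus strand). It stood at 9.53, 9.43, 10.5, 4.46 and 14.9 FPKM in MI 1 to MI 5 and at 6.11, 3.58, 3.31, 4.14 and 3.88 FPKM in MI+Nav 1 to MI+Nav 5. In 4 of 5 MI libraries the level was above that of every Nav library, and MI 4 lay among the treated ones. Means were 9.77 ± 3.73 and 4.21 ± 1.11 FPKM (SD, n = 5 each), a log2 fold change of -1.07 (SE 0.26, 95% interval -1.62 to -0.51) that did not pass the threshold (adjusted p 0.103). Without MI 4, its lowest MI library, it was -1.31 with an adjusted p of 0.00395, and without each other library in turn the adjusted p was 0.1001 to 0.259.

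Dcn and Lum are neighbours on chromosome 10 (97479609 to 97518143 and 97565128 to 97572703, both plus strand), separated by 46984 bases. Decorin binds collagen and TGF-β, and lumican, a keratan sulfate proteoglycan, regulates collagen fibril spacing. Dcn was 4.27, 4.67, 3.93, 1.11 and 4.96 FPKM in MI 1 to MI 5, and 2.94, 1.53, 0.919, 2.36 and 5.12 FPKM in MI+Nav 1 to MI+Nav 5. The highest of all 10 values was in a treated library, MI+Nav 5, and the groups overlapped widely. Its log2 fold change was -0.52 (SE 0.40, 95% interval -1.38 to 0.34, adjusted p 0.606). Lum ranged from 0.268 to 1.24 FPKM in the MI group and from 0.0614 to 0.702 FPKM under navarixin, and its log2 fold change was -0.31 (95% interval -0.86 to 0.24, adjusted p 0.636). Both genes were lowest in MI 4 and MI+Nav 3 of their groups and highest in MI+Nav 5 among treated libraries. Lum rested on an estimated 3 to 57 fragments.

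Mgp encodes matrix Gla protein, a vitamin K-dependent inhibitor of calcification made by vascular smooth muscle, endothelium and cartilage (chromosome 6, 136872435 to 136875823, minus strand). Its level was 31.0, 43.5, 32.0, 8.13 and 67.7 FPKM in MI 1 to MI 5 and 10.9, 6.48, 5.12, 15.9 and 13.6 FPKM in MI+Nav 1 to MI+Nav 5. As with Bgn, 4 MI libraries lay above every Nav library and MI 4 fell within the treated range. Means were 36.5 ± 21.7 and 10.4 ± 4.59 FPKM (SD, n = 5 each). The log2 fold change, -1.60, was the largest of the 6 but also the least precise (SE 0.50, 95% interval -2.69 to -0.51, adjusted p 0.217). Without MI 4, again the lowest of its group, it was -2.05 with an adjusted p of 0.00734, and without each other library in turn the adjusted p was 0.219 to 0.459.

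Fn1 encodes fibronectin, the glycoprotein on which collagen and fibrillin are first assembled (chromosome 1, 71585520 to 71653175, minus strand). It was 2.03, 2.12, 2.52, 1.34 and 2.42 FPKM in MI 1 to MI 5 and 1.46, 1.54, 1.74, 0.985 and 1.60 FPKM in MI+Nav 1 to MI+Nav 5. Here too 4 MI libraries were above all Nav libraries. The difference was small, with a log2 fold change of -0.39 (SE 0.17, 95% interval -0.75 to -0.02) and an adjusted p of 0.367. Without MI 4, which was the lowest MI library for all 6 tested members, 3 of the 6 were lower at an adjusted p under 0.05 (Ogn, Bgn and Mgp), where 2.17% of all tested genes were.

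**Figure D2:**
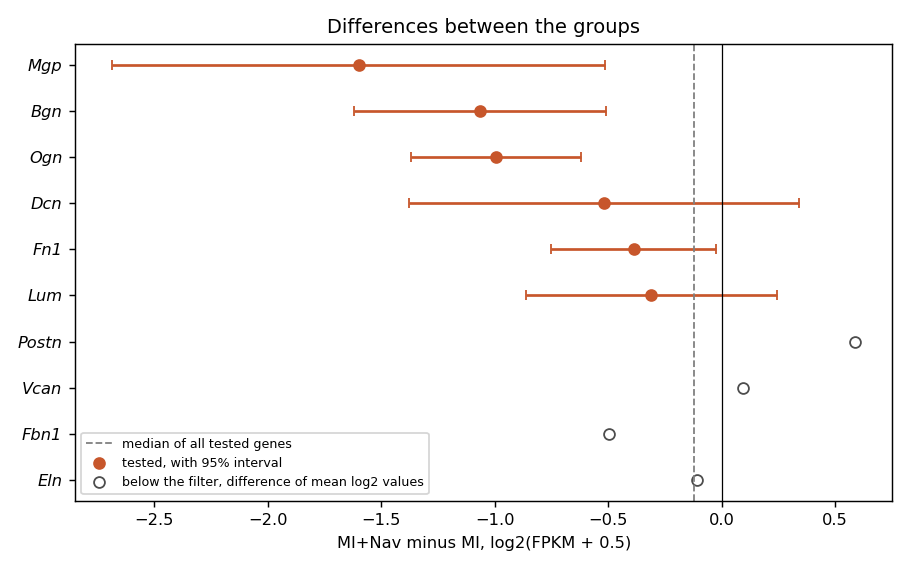
Difference between the groups on the log2(FPKM + 0.5) scale (horizontal axis) for each gene (vertical axis). Filled points are the 6 tested members with 95% intervals from limma, open points are the 4 members below the filter, with no test, and the dashed line is the median of all tested genes. Intervals of Mgp, Bgn, Ogn and Fn1 lie below 0, those of Dcn and Lum span it, and Postn has the highest positive difference, 0.59.

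**Figure D3:**
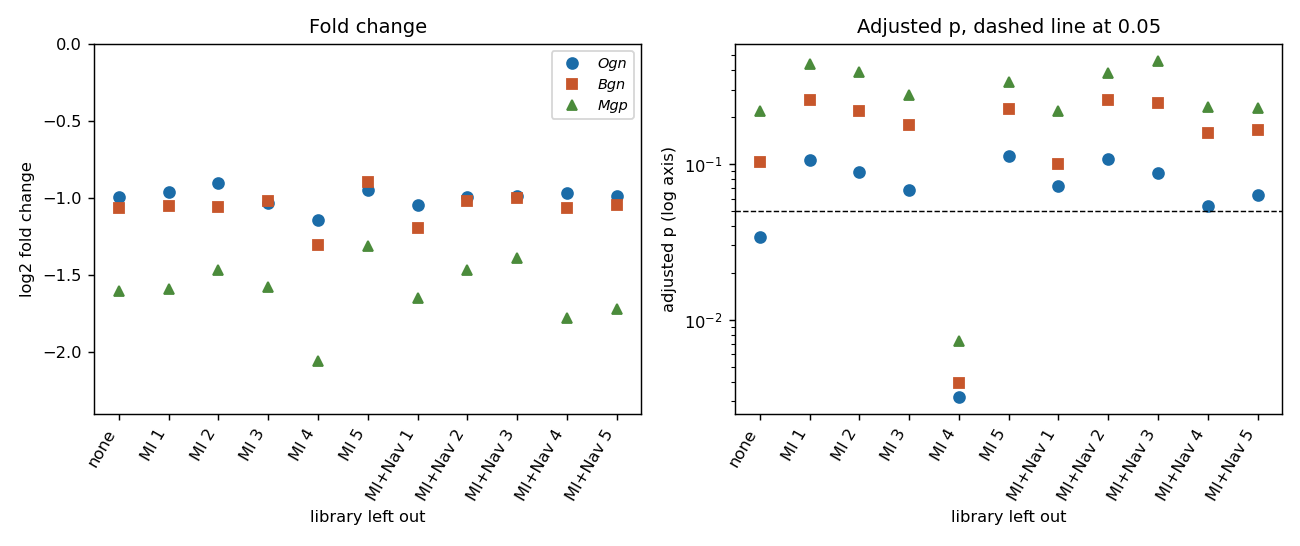
Log2 fold change (left, linear axis) and adjusted p (right, log axis) of Ogn, Bgn and Mgp with each library left out in turn, or none. The dashed line marks 0.05. All fold changes stay below 0, and the points without MI 4 are the lowest in both panels, with adjusted p of 0.00319, 0.00395 and 0.00734.

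Postn, which encodes periostin, a matricellular protein of activated fibroblasts and myofibroblasts, had the higher mean in the Nav group (chromosome 3, 54361109 to 54391037, plus strand). It was 0.148, 0.245, 0.0594, 0.180 and 0.0671 FPKM in MI 1 to MI 5, and 0.572, 0.255, 0.118, 0.551 and 1.02 FPKM in MI+Nav 1 to MI+Nav 5. Of the treated libraries, 4 of 5 were above every MI library, and MI+Nav 1, MI+Nav 4 and MI+Nav 5 stood well apart from the rest. The means, 0.140 ± 0.0783 and 0.504 ± 0.350 FPKM (SD, n = 5 each), rested on an estimated 3 to 57 fragments, so that single libraries carry few reads. Postn was below the filter, and its difference of mean log2 values, 0.59, had an adjusted p of 0.448 when the filter was dropped.

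The 3 libraries with the highest Postn were also the highest in 2 other readouts. Acta2, the actin of smooth muscle and myofibroblasts, was 4.18 to 7.37 FPKM in the MI group, and 16.2, 8.70, 6.13, 19.6 and 33.0 FPKM in MI+Nav 1 to MI+Nav 5 (log2 fold change 1.32, adjusted p 0.161). It dominated a list of 8 myofibroblast markers, which summed to 5.12 to 8.81 FPKM (MI) and 7.09 to 35.7 FPKM (Nav). The other tested gene of that list, Col8a1, had a log2 fold change of -0.07. Scarcer genes of activated fibroblasts were mixed. Mean FPKM in MI and Nav was 0.235 and 0.144 for Lrrc15, 0.0398 and 0.0273 for Fap, and 0.0754 and 0.135 for Cthrc1. The summed level of 11 urothelial and simple epithelial markers was 85.4 to 101 FPKM in the MI group, and 240, 60.2, 64.5, 271 and 267 FPKM in MI+Nav 1 to MI+Nav 5, with Krt8 and Krt18, keratins of simple epithelia, the highest of them. All 10 of the tested urothelial markers had a log2 fold change above 0, and none passed the threshold or had an unadjusted p under 0.05. The part of these other cells in the level of Postn was not tested.

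**Figure D4:**
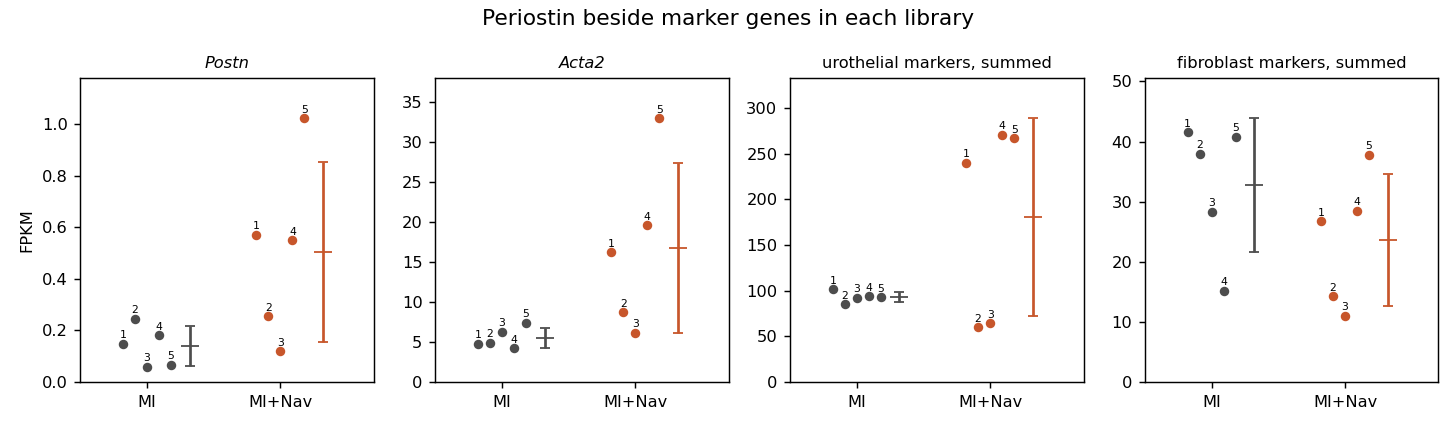
FPKM (vertical axes, from 0) of Postn, of Acta2, and summed over 11 urothelial and 15 fibroblast markers in each library, with replicate numbers and the group mean ± SD (n = 5). In the first 3 panels MI+Nav 1, 4 and 5 are the highest libraries, with urothelial sums of 240, 271 and 267 FPKM, and the fibroblast sums of the groups overlap.

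Vcan encodes versican, a large hyaluronan-binding proteoglycan of provisional matrix (chromosome 13, 89655312 to 89742509, minus strand). It was scarce in every library, from 0.0199 to 0.157 FPKM in the MI group and from 0.0365 to 0.268 FPKM under navarixin, and the ranges overlapped over most of their length. The elastic fibre genes were also below the filter. Fbn1, the main microfibril protein (chromosome 2, 125300594 to 125507993, minus strand), was 0.456, 0.658, 0.566, 0.239 and 0.489 FPKM in MI 1 to MI 5 and 0.227, 0.185, 0.245, 0.124 and 0.171 FPKM in MI+Nav 1 to MI+Nav 5. The groups overlapped only through MI 4 (0.239) and MI+Nav 3 (0.245). Its long transcript gave an estimated 26 to 148 fragments per library, and the group means were 0.481 ± 0.156 and 0.190 ± 0.0478 FPKM (SD, n = 5 each). With the filter dropped, its log2 difference of -0.50 had an adjusted p of 0.301 (limma). Eln, elastin (chromosome 5, 134702593 to 134747323, minus strand), ranged from 0.287 to 0.579 FPKM in the MI group and from 0.199 to 0.376 FPKM under navarixin, and differed by -0.11 on the log2 scale. Over all 10 members, 8 had a lower mean in the Nav group, and Postn and Vcan had a higher one.

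Wider lists of matrix genes gave few calls. Their counts stand beside 71.7% of all tested genes with a log2 fold change below 0 and 11.5% lower at an unadjusted p under 0.05. Of 9 tested small leucine-rich proteoglycans, 8 were below 0, 3 were lower at an unadjusted p under 0.05 and Ogn was the 1 past the threshold (median -0.40). Of 12 tested genes of elastic fibre assembly, 11 were below 0, 0 passed the threshold and 5 had an unadjusted p under 0.05, all lower (median -0.49). The most abundant of them were Fbln5, which organizes elastin onto microfibrils, at 9.47 ± 4.86 in the MI group and 3.27 ± 1.17 FPKM under navarixin (SD, n = 5), and Efemp1, another fibulin, at 6.81 ± 1.89 and 8.76 ± 2.38 FPKM. Mfap3, a microfibril-associated protein, averaged 2.17 and 1.33 FPKM. Its treated mean was lowered by MI+Nav 1 (0.0550 FPKM). The other treated libraries, at 1.27 to 1.94 FPKM, lay within the MI range of 1.18 to 3.33 FPKM. Of 17 tested matricellular and adhesive glycoproteins, 13 were below 0, 0 passed and 8 had an unadjusted p under 0.05, also lower (median -0.57). The most abundant, Igfbp7 and Spp1 (osteopontin), averaged 495 and 301 FPKM in the MI group and 521 and 409 FPKM under navarixin. The proteoglycans of basement membranes and cell surfaces had a median of -0.12, that of all genes, over 13 tested genes, with 0 past the threshold and 4 lower at an unadjusted p under 0.05. Their most abundant members were Sdc4 and Sdc2, which are syndecans, and the glypican Gpc4, and Sdc4 averaged 96.4 ± 7.60 and 89.9 ± 17.3 FPKM (SD, n = 5).

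The enzymes and receptors around these proteins were measured as well, and the same shares over all genes apply to their counts. Of 15 tested genes of chondroitin and dermatan sulfate synthesis, which builds the chains of Bgn, Dcn and Vcan, 14 were below 0, 1 had an unadjusted p under 0.05 and 0 passed (median -0.21). The most abundant were B3gat3, Chst7 and Fam20b. Of 9 tested receptors for fibronectin and periostin, 6 were below 0, 3 were lower at an unadjusted p under 0.05 and 1 passed the threshold. That gene was Itga8, the partner of integrin β1 in a fibronectin and nephronectin receptor. Itga8 averaged 1.40 ± 0.278 and 0.599 ± 0.120 FPKM (SD, n = 5) without overlap, as was so for 2.57% of all tested genes in this direction. Its log2 fold change was -0.78 (SE 0.15, adjusted p 0.0445), and with no filter 0 genes passed, Itga8 included. Over the whole table, only 3 genes passed with quantile normalization. Leaving out MI 1, MI 2, MI 3, MI 5, MI+Nav 1, MI+Nav 2 or MI+Nav 3 left 1 to 3 genes past the threshold. Whether Itga8 was among them is not given here. The TGF-β list had 12 of 13 tested genes below 0, 2 lower at an unadjusted p under 0.05 and 0 past the threshold (median -0.24), with Smad4, Ski and Tgfbr1 the most abundant. Of 5 genes that encode Gla proteins or the enzymes of their vitamin K-dependent carboxylation, 3 were below 0, 1 had an unadjusted p under 0.05 (Mgp) and 0 passed (median -0.32). Gas6, another Gla protein, averaged 101 and 77.0 FPKM, and Vkorc1, the vitamin K reductase, averaged 37.4 and 42.2 FPKM. Of 14 genes of hyaluronan and its binding proteoglycans in the table, 3 were tested (Hyal2, Cemip2 and Hyal1), all below 0, 1 of them at an unadjusted p under 0.05 and 0 past the threshold.

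**Figure D5:**
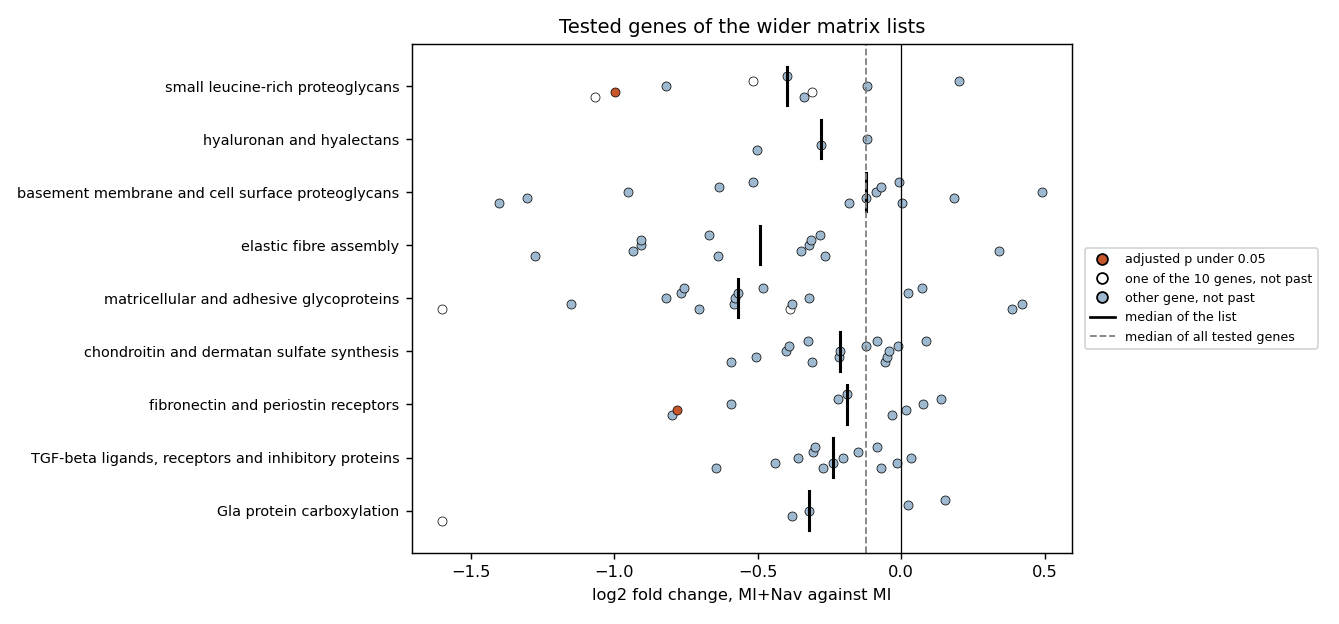
Log2 fold change (horizontal axis) of each tested gene in 9 wider matrix lists (rows, points spread vertically for legibility). Orange points passed an adjusted p under 0.05, white points are members that did not pass, blue points are other genes, black ticks are list medians and the dashed line is the median of all tested genes. The 2 orange points are Ogn at -0.995 and Itga8 at -0.78.

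Markers of cell types that can make these proteins were set beside the results. The summed level of 15 fibroblast markers, of which Dcn and Lum are part and Gsn and Tcf21 the most abundant, was 15.2 to 41.5 FPKM in the MI group and 11.0 to 37.8 FPKM under navarixin. All 10 tested fibroblast markers were below 0 (median -0.59), 4 of them at an unadjusted p under 0.05, and 0 passed the threshold. Without Dcn and Lum the remaining 13 summed to 36.4, 32.1, 24.0, 13.8 and 35.1 FPKM in MI 1 to MI 5 and to 23.2, 12.4, 10.0, 25.6 and 32.0 FPKM in MI+Nav 1 to MI+Nav 5, so that the groups overlapped. A large part of these sums was Gsn, at 7.51 to 16.4 FPKM in the MI group and 6.25 to 18.7 FPKM under navarixin (log2 fold change -0.03). The sums therefore say little about the scarcer markers of the list. Pdgfra, a receptor of fibroblasts named after its values were seen, averaged 1.10 ± 0.395 and 0.426 ± 0.0885 FPKM (SD, n = 5, adjusted p 0.104). The groups were separated only narrowly, by 0.525 FPKM in MI 4 and 0.522 FPKM in MI+Nav 1. Of all tested genes, 2.57% had no overlap in this direction.

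Endothelial markers summed to 37.7 to 107 FPKM in the MI group and 18.3 to 49.9 FPKM under navarixin. All 12 were below 0 (median -0.95), 11 of them at an unadjusted p under 0.05, and 1 passed, Eng, a TGF-β co-receptor, at 12.6 ± 4.90 and 3.82 ± 1.07 FPKM (SD, n = 5, adjusted p 0.0317). Plvap, a protein of fenestrated endothelium, was the most abundant of the list. The 14 smooth muscle and pericyte markers, with Tagln and Acta2 the most abundant, summed to 32.3 to 56.4 and 30.5 to 91.9 FPKM, and their directions were mixed. Pdgfrb, a pericyte receptor, was lower (log2 fold change -1.11, adjusted p 0.0317). Myh11, the smooth muscle myosin, had a log2 fold change of 1.18 (adjusted p 0.0703). With no filter 0 genes passed the threshold, Eng and Pdgfrb included, and 1 gene of the table did without MI+Nav 2. Leukocyte markers summed to 17.7 to 57.2 and 13.1 to 25.5 FPKM, with 5 of 5 tested genes below 0 (median -0.86), 4 of them at an unadjusted p under 0.05 and 0 past the threshold, and Lyz2 and Csf1r, both of myeloid cells, the most abundant. MI 4, the lowest MI library for all 6 tested members, was also the lowest MI library for the fibroblast, endothelial, smooth muscle and leukocyte sums. Chondrocyte markers summed to 0.150 to 0.261 FPKM in the MI group and 0.0953 to 0.450 FPKM under navarixin. The part of cell composition in the differences of Ogn, Bgn and Mgp was not tested.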

How the data were processed

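The deposited values are FPKM per gene for 10 libraries, grouped by the sample labels. Per the methods and the processing notes, the authors trimmed reads with cutadapt 1.9, aligned poly(A)-selected, strand-marked libraries to mm10 with HISAT2 2.0.4, estimated expression with StringTie 1.3.4d and tested counts with DESeq2 and edgeR. Counts were not used here, and no annotation release was named in the sources read. FPKM depend on the other genes of a library, so levels of a library can shift together.

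Genes reaching 0.5 FPKM in 5 or more libraries were tested on log2(FPKM + 0.5), which understates changes of low genes, with limma 3.58.1 in R 4.3.3 (eBayes with trend and robust prior) and Benjamini-Hochberg adjustment over all tested genes. Fragments were estimated from the smallest steps of single-transcript genes. The fit was tested on simulated data. Alternatives were other pseudocounts, filters, scalings, weights and covariates, a replicate block, and fits without libraries. Figures used matplotlib 3.10.9.

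The members and lists were chosen with earlier results of these data known. Named were every member, from each matrix list the genes past an adjusted p under 0.05 (or else the 3 of highest mean), and from marker lists those of highest mean. Pdgfra, Pdgfrb, Myh11, Myh6, Cenpp, Col8a1, Lrrc15, Fap and Cthrc1 were added after values were seen.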

Additional observations from a re-analysis of the deposited data

Results flagged for a closer look

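In 4 of the 20 groups of 5 libraries examined (10 members, each in MI and in MI+Nav), the highest or lowest library was separated from the nearest other by more of the group's range than Dixon's 95% critical value allows, which chance gives in about 1 of 20 groups. Dcn was lowest in MI 4, at 1.11 FPKM. Ogn was highest among the treated libraries in MI+Nav 1, at 2.44 FPKM, which still lay below every MI library. Vcan was highest in MI+Nav 4, at 0.268 FPKM, and Eln was highest in MI 3, at 0.579 FPKM, both at levels below the filter.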

How the results depend on the processing

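As reported, 49 genes and 1 member passed an adjusted p under 0.05. All 6 tested members had a log2 fold change below 0 in every alternative in which they were tested (Lum was not tested without the 3 libraries of highest urothelial markers, nor with a minimum of 1 FPKM). With no filter, 0 of 29868 genes and 0 of 10 members passed the threshold. There, 2809 genes and 6 members had an unadjusted p under 0.05 (limma). Of these 6, Postn was higher, and Ogn, Bgn, Mgp, Fn1 and Fbn1 were lower. Genes and members past the threshold were 3 and 0 with quantile normalization and 378 and 2 with array weights (Ogn and Bgn). Without the 4 libraries of highest mitochondrial share, of which MI 4 was one, they were 284 and 3 (Ogn, Bgn and Mgp). Without the 3 libraries of highest urothelial markers they were 604 and 0. Those 3 were all treated, which left MI+Nav 2 and MI+Nav 3 as the treated group. With the mitochondrial share as covariate, 91 genes passed. Leaving out 1 library gave 1 to 295 genes and 0 to 3 members. The highest of these, 295 and 3, came without MI 4. Without any other single library 0 members passed (3 to 4 at an unadjusted p under 0.05, limma), and without MI+Nav 4 and MI+Nav 5 there were 41 and 23 genes. Ogn passed in 10 of 23 alternatives (adjusted p 0.00311 to 0.130), Bgn in 3 (0.00395 to 0.291), Mgp in 2 (0.00734 to 0.459) and Fn1, Dcn and Lum in 0. The cause of these changes was not tested.

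The labels number the libraries 1 to 5 in both groups. Same-numbered libraries did not deviate together (correlations -0.22 to 0.05, none best with its own number), so the numbers were not taken as pairs. A replicate block gave 6 genes and 0 members past the threshold (Ogn, adjusted p 0.0893). Lum, Postn and Vcan rest on few fragments in some libraries, which limits their precision.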
